A study of Mus musculus with 8 samples.

Results

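The genes described are 10 of the integrated stress response, namely Atf4, Atf5, Ddit3, Trib3, Chac1, Asns, Sesn2, Ppp1r15a, Ddit4 and Nupr1. They were taken by symbol from the 53242 genes of the deposited tables. All 10 were found, and all 10 were among the 14218 genes that passed the filter on low counts. RNA of splenic B cells was sequenced from 4 control mice (Eif4a1 +/+ Cd23-cre) and 4 4A1 KO mice (Eif4a1 fl/fl Cd23-cre), all C57BL/6 and 8 to 12 weeks old. The cells of both genotypes had been activated for 24 h on CD40LB feeder cells, fibroblasts that express CD40 ligand and human BAFF, a B cell survival factor, with IL4 at 40 ng/ml, and were purified from the feeder cells by antibody depletion. Both genotypes carried Cd23-cre, which deletes from the immature splenic B cell stage onwards, so the genotypes differed in the floxed Eif4a1 allele, in which loxP sites flank some of the exons. Replicates 1 and 2 were batch A and replicates 3 and 4 batch B, with males in replicates 1 and 3 and females in replicates 2 and 4. The study removed replicate 1 of both genotypes for reduced viability, so tests used replicates 2 to 4 (n = 3 mice per genotype), and the values of replicate 1 are shown beside them.

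In the integrated stress response, kinases that sense amino acid shortage, unfolded protein in the endoplasmic reticulum, double-stranded RNA or haem shortage phosphorylate the initiation factor eIF2, which lowers general translation. The mRNA of the transcription factor ATF4 carries upstream open reading frames and is then translated more, and ATF4 protein activates genes for amino acid supply, for feedback on the response and for growth arrest or death. EIF4A1 is the RNA helicase of the cap-binding complex EIF4F and acts at another step of initiation. The files analysed here hold mRNA, so neither ATF4 protein nor eIF2 phosphorylation was measured in them.

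ATF4 binds DNA with C/EBP factors at composite elements of the form TGATGNAA. This motif was searched on both strands in RefSeq promoter windows (GRCm38.p6 table, 250 bases before to 50 after each start site), and it was found in 4 of the 10 genes and in 1219 of 27025 genes with a window (4.51%). The 4 matches are shown because they are the only stretches of these windows that hold the motif. Each is given 5′ to 3′ on the strand of the gene with the match in capitals, and was located in GRCm39 by exact match.
Trib3 (chr2:152185948-152185977, minus strand): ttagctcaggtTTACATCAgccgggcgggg
Nupr1 (chr7:126224734-126224763, minus strand): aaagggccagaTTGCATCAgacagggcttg
Asns (chr6:7693214-7693243, minus strand): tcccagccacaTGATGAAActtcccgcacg
Chac1 (chr2:119181519-119181548, plus strand): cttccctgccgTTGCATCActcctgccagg
The Asns match reads in the direction of the gene and begins at position -23 from the RefSeq start, while the other 3 read on the opposite strand, at position 15 in Trib3, -110 in Nupr1 and -193 in Chac1. In the GENCODE M39 annotation, which holds further start sites, the stretch lies in an untranslated exon of 5 of 12 Trib3 transcripts, 7 of 14 Nupr1 transcripts, 23 of 40 Asns transcripts and 1 of 2 Chac1 transcripts. Binding was not measured. Of the 4 genes, Asns was higher in 4A1 KO cells, Chac1 was lower, and Trib3 and Nupr1 did not pass the test, as the values given for each gene show.

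The targeted gene was checked first. Eif4a1 was at 825, 748, 940 and 881 normalised counts (CPM, counts scaled to a common library total with edgeR's TMM method) in control replicates 1 to 4 and at 596, 556, 641 and 689 CPM in 4A1 KO replicates 1 to 4. The genotypes did not overlap, and the gene fell by 0.44 on the log2 scale (SE 0.05, adjusted p = 1.15e-04, Benjamini-Hochberg, edgeR's quasi-likelihood test). The counts cover the whole gene, the exons outside the floxed part included. The libraries held 31727557 to 43210858 counts, the smallest being 4A1 KO replicate 1, and 0.974 to 1.59% of counts were mitochondrial. B cell markers (8 genes) summed to 8585 to 11769 CPM in control and 8812 to 12471 CPM in 4A1 KO libraries, with 4 of 8 called lower past the thresholds given for the members (13.7% of all genes tested) and a median log2 fold change of -0.45. Fibroblast markers (12 genes), which could come from feeder cells, summed to 10.2 to 45.5 CPM in control and 15.9 to 28.2 CPM in 4A1 KO libraries, with control replicate 2 the highest, Lum and Postn at 0 in every library and 7 of the 12 under 1 CPM in every library. Their part in the results was not tested. T cell, NK cell and erythroid markers summed to at most 1.11 CPM in any library, and myeloid markers to 4.09 to 8.14 CPM in control and 7.31 to 8.97 CPM in 4A1 KO libraries, with 1 of 3 tested genes called higher (11.6% of all genes tested). In bulk RNA, fewer cells that express a gene and less of its RNA per cell cannot be told apart.

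The 10 genes did not move in one direction. Atf5, Asns and Ppp1r15a rose and Chac1 and Ddit4 fell in 4A1 KO cells past both thresholds used by the study, a fold change above 0.5 in absolute log2 value with an adjusted p under 0.05. This makes 3 of 10 higher and 2 of 10 lower, against 11.6% of all genes tested called higher and 13.7% called lower. The study applied the fold threshold to DESeq2 values after shrinkage, which reduces uncertain fold changes. Here the threshold was applied to edgeR values without this shrinkage, so the calls are not the study's own. By adjusted p alone, Atf4 and Sesn2 were also higher and Ddit3 was also lower, so that 5 of 10 were higher and 3 of 10 lower, against 26.3% and 26.7% of all genes tested. Trib3 and Nupr1 did not pass. The adjusted p of Sesn2 was over 0.05 in 6 of 13 other settings and that of Ddit3 in 3 of 13. With DESeq2, 3 of 10 genes were higher and 3 of 10 lower by adjusted p alone, against 2857 and 3130 of 21402 genes tested. Ppp1r15a was not past both thresholds in 7 of 13 other settings. With DESeq2, 2 of 10 genes were called higher, against 1212 of 21402 genes tested. Without replicate 3 it was 2 of 10, against 1405 of 14347, and without replicate 4 it was 5 of 10, against 1728 of 14337. The median log2 fold change of the 10 genes was 0.34 and that of all genes tested was 0.01, but the median of the 10 was 0.087 without replicate 3 and 0.19 with all 8 libraries.

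**Figure D1:**
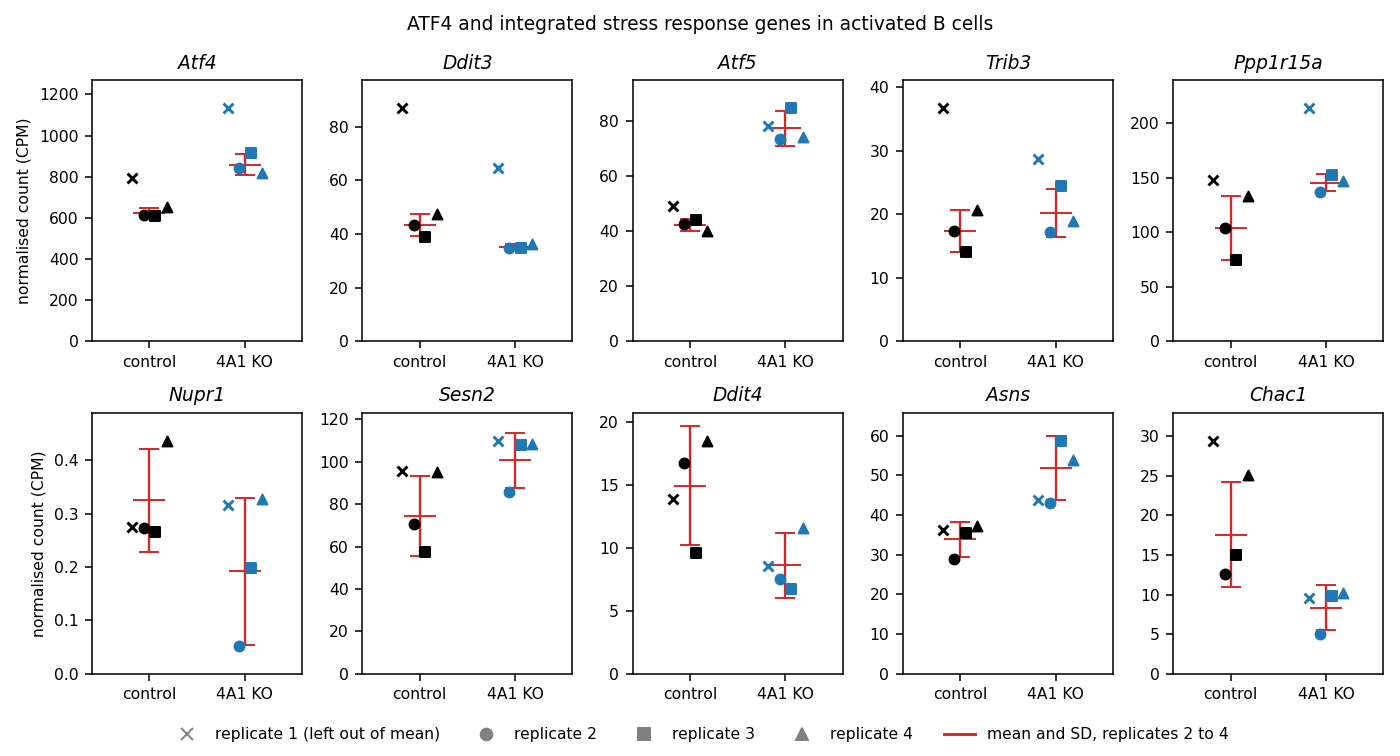
Normalised counts (CPM, linear axis from 0) of the 10 genes in each library, control in black and 4A1 KO in blue, with a marker for each replicate number and the mean ± SD of replicates 2 to 4 in red. The 4 control and the 4 4A1 KO libraries are separate for Atf4, Atf5, Asns and Chac1 and overlap for the other 6 genes, and replicate 1 (crosses) is the highest control library for 7 genes.

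Atf4 (ENSMUSG00000042406, chr15:80139372-80141745, plus strand, GRCm39), the central factor of the response, was measured at 795, 616, 609 and 651 CPM in control replicates 1 to 4. In 4A1 KO replicates 1 to 4 it was measured at 1133, 843, 914 and 817 CPM. Each 4A1 KO library was above every control library, and replicate 1 was the highest in both genotypes. The mean of replicates 2 to 4 was 625 ± 22.3 CPM in control and 858 ± 50.1 CPM in 4A1 KO cells (SD, n = 3), which is 37.2% higher. The log2 fold change was 0.46 (SE 0.05, adjusted p = 1.63e-04, Benjamini-Hochberg, edgeR's quasi-likelihood test), below the fold threshold of 0.5.

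Atf5 (ENSMUSG00000038539, chr7:44461680-44466082, minus strand), a related factor whose mRNA is also translated through upstream open reading frames, had the largest increase of the 10. It was at 49.1, 42.7, 44.1 and 40.0 CPM in control replicates 1 to 4 and at 78.2, 73.4, 84.8 and 74.1 CPM in 4A1 KO replicates 1 to 4. The genotypes did not overlap, and the lowest 4A1 KO library lay well above the highest control library. The mean was 83.4% higher, with a log2 fold change of 0.87 (SE 0.06, adjusted p = 1.53e-05, edgeR with Benjamini-Hochberg adjustment). Of its exonic bases, 8.36% overlap Nup62 and Il4i1 on the opposite strand, and reads had been counted by strand.

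Ddit3 (ENSMUSG00000025408, chr10:127124268-127132163, plus strand) encodes CHOP, a factor induced by ATF4 and linked to cell death. It was at 86.9, 43.5, 39.0 and 47.3 CPM in control replicates 1 to 4 and at 64.8, 34.8, 34.8 and 36.3 CPM in 4A1 KO replicates 1 to 4. Replicate 1 stood above the other 3 libraries in both genotypes, and 4A1 KO replicate 1 lay above control replicates 2 to 4, so the genotypes overlapped over the 8 libraries. Within each of the 4 pairs of same-numbered libraries, and among replicates 2 to 4 as groups, Ddit3 was lower in 4A1 KO cells. The log2 fold change was -0.29 (SE 0.07, adjusted p = 0.00603, edgeR with Benjamini-Hochberg adjustment) in replicates 2 to 4, and -0.34 (SE 0.19, adjusted p = 0.145) in the same model over all 8 libraries. In the GENCODE annotation 64.1% of the exonic bases of Ddit3 lie opposite exons of Mars1, a gene on the other strand, so the counts rest on the strand-specific counting. Mars1 had a log2 fold change of -0.03 (adjusted p = 0.576).

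Ppp1r15a (ENSMUSG00000040435, chr7:45172340-45175692, minus strand) encodes GADD34, which brings a phosphatase to eIF2 and so reverses the response. It was at 147, 104, 74.2 and 133 CPM in control replicates 1 to 4 and at 214, 137, 152 and 147 CPM in 4A1 KO replicates 1 to 4. The 4A1 KO library was the higher one in 4 of 4 pairs, while control replicate 1 lay above 4A1 KO replicate 2 and the genotypes overlapped. The control libraries of replicates 2 to 4 spread widely (104 ± 29.3 CPM) and the 4A1 KO libraries little (145 ± 7.82 CPM, SD, n = 3). The log2 fold change was 0.52 (SE 0.14, adjusted p = 0.0105, edgeR with Benjamini-Hochberg adjustment), but it was 0.27 (adjusted p = 0.0133) without replicate 3, which had the lowest control value. With DESeq2 the adjusted p was 0.0675.

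Trib3 (ENSMUSG00000032715, chr2:152179337-152191958, minus strand) encodes a pseudokinase that restrains ATF4. It was at 36.6, 17.4, 14.1 and 20.6 CPM in control replicates 1 to 4 and at 28.6, 17.2, 24.5 and 18.9 CPM in 4A1 KO replicates 1 to 4. The 4A1 KO library was the higher one only in the pair of replicate 3, and the genotypes overlapped. The log2 fold change was 0.22 (SE 0.16, adjusted p = 0.283, edgeR with Benjamini-Hochberg adjustment), and without replicate 3 it was -0.067. Without replicate 4 it was 0.39 with an adjusted p of 0.0311 by the same test, the only one of 13 other settings in which Trib3 passed.

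Asns (ENSMUSG00000029752, chr6:7671667-7728461, minus strand) encodes asparagine synthetase, which makes asparagine from aspartate. It was at 36.1, 28.9, 35.6 and 37.2 CPM in control replicates 1 to 4 and at 43.9, 42.9, 58.7 and 53.8 CPM in 4A1 KO replicates 1 to 4. The genotypes did not overlap, and the batch A libraries of 4A1 KO cells (replicates 1 and 2) were the nearest to control. The mean rose from 33.9 ± 4.43 to 51.8 ± 8.09 CPM (SD, n = 3), with a log2 fold change of 0.61 (SE 0.06, adjusted p = 8.86e-05, edgeR with Benjamini-Hochberg adjustment).

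Chac1 (ENSMUSG00000027313, chr2:119180757-119184866, plus strand) encodes an enzyme that degrades glutathione, and it fell the most of the 10. It was at 29.4, 12.6, 15.0 and 25.0 CPM in control replicates 1 to 4 and at 9.53, 5.04, 9.82 and 10.2 CPM in 4A1 KO replicates 1 to 4. All 4 4A1 KO libraries lay below the 4 control libraries, although the control libraries themselves differed widely. The mean of replicates 2 to 4 was 17.6 ± 6.57 CPM in control and 8.34 ± 2.87 CPM in 4A1 KO cells, a log2 fold change of -1.07 (SE 0.14, adjusted p = 2.87e-04, edgeR with Benjamini-Hochberg adjustment). Asns and Chac1, both with a match to the motif, thus moved in opposite directions.

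Sesn2 (ENSMUSG00000028893, chr4:132219335-132237815, minus strand) and Ddit4 (ENSMUSG00000020108, chr10:59785491-59788492, minus strand, also called REDD1) both encode inhibitors of the growth kinase complex mTORC1. Sesn2 was at 95.4, 70.4, 57.5 and 95.0 CPM in control replicates 1 to 4 and at 110, 85.7, 108 and 108 CPM in 4A1 KO replicates 1 to 4. Ddit4 was at 13.9, 16.7, 9.55 and 18.5 CPM in control and at 8.58, 7.50, 6.76 and 11.6 CPM in 4A1 KO replicates 1 to 4. Sesn2 was higher and Ddit4 lower in 4A1 KO cells in 4 of 4 pairs, and for both genes the ranges of the genotypes overlapped. 4A1 KO replicate 2 lay below control replicates 1 and 4 for Sesn2, and control replicate 3 lay below 4A1 KO replicate 4 for Ddit4. Sesn2 had a log2 fold change of 0.46 (SE 0.12, adjusted p = 0.0104, edgeR with Benjamini-Hochberg adjustment), and the value without replicate 3 was 0.24. Ddit4 had a log2 fold change of -0.78 (SE 0.13, adjusted p = 9.63e-04), with a mean of 14.9 ± 4.73 CPM in control and 8.61 ± 2.58 CPM in 4A1 KO cells (SD, n = 3). The call of Ddit4 was lost in 2 of 13 other settings, with an adjusted p of 0.0601 by edgeR without the replicate block and of 0.0584 by limma on log2(TPM + 1) without a filter. These inhibitors of the same complex thus differed in direction.

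Nupr1 (ENSMUSG00000030717, chr7:126222414-126230033, minus strand), a stress-induced chromatin protein, was close to the limit of detection. Its raw counts were 11, 11, 11 and 19 in control replicates 1 to 4 and 10, 2, 8 and 14 in 4A1 KO replicates 1 to 4. The genotypes overlapped, and the log2 fold change of -0.78 had an SE of 0.45 (adjusted p = 0.178, edgeR with Benjamini-Hochberg adjustment). No difference was detected at these few counts, and the part played by depth was not tested.

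**Figure D2:**
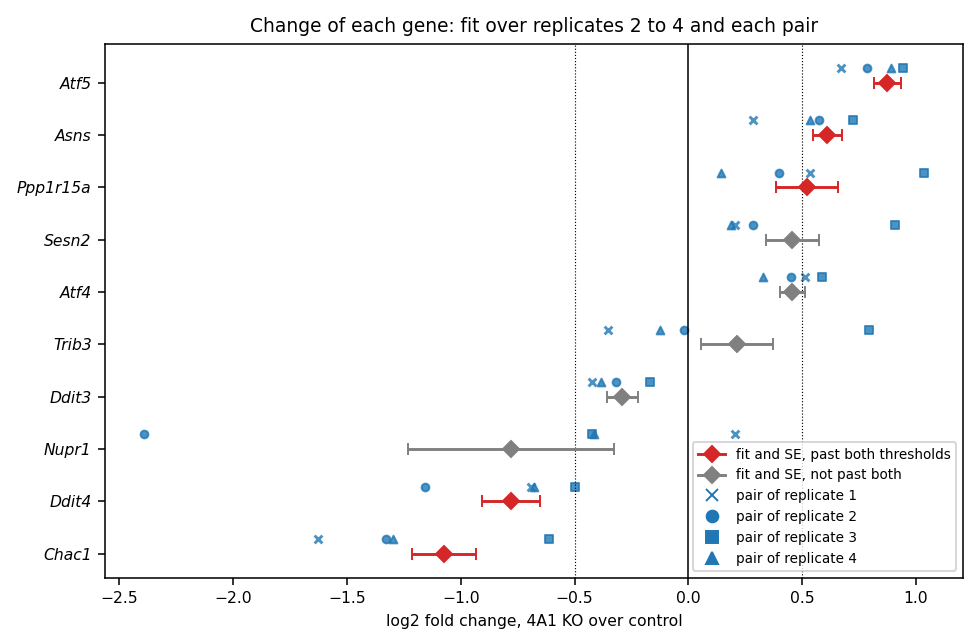
Log2 fold change of 4A1 KO over control for each gene, with diamonds for the fit over replicates 2 to 4 with its SE (red where past both thresholds, dotted lines at the fold threshold of 0.5) and blue markers for the 4 pairs. The pair of replicate 3 is the highest of the 4 for every gene but Nupr1, and the pairs of Trib3 and Nupr1 fall on both sides of 0.

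Over the 8 libraries, 3 of the 10 genes (Atf4, Atf5 and Asns) were higher in all 4A1 KO than in all control libraries and 1 (Chac1) was lower, against 17.3% and 19.6% of all genes tested. Each of these 4 genes had an exact permutation p of 0.0286 (two-sided, n = 4 per genotype), the smallest that 4 against 4 libraries allow. This p follows from the separation of the libraries and adds nothing to it. The exact permutation p over the 8 libraries was 0.0571 for Ddit4, 0.0857 for Ppp1r15a, 0.0857 for Sesn2, 0.314 for Nupr1, 0.429 for Ddit3 and 0.857 for Trib3, unadjusted for 10 genes. These permutations took no account of the pairs of same-numbered libraries. Within pairs, 5 genes (Atf4, Atf5, Ppp1r15a, Sesn2 and Asns) were higher in the 4A1 KO library in 4 of 4 pairs, and 3 genes (Ddit3, Ddit4 and Chac1) were lower in 4 of 4. The difference was highest, or least negative, in the pair of replicate 3 for 9 of the 10 genes, all but Nupr1. For these counts over pairs, the shares of all genes were not computed. The counts therefore cannot be read as particular to the 10 genes.

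Replicate 1, the pair with reduced viability, was the highest library of its genotype for 7 of the 10 genes in control (Atf4, Ddit3, Atf5, Trib3, Ppp1r15a, Sesn2 and Chac1) and for 5 of 10 in 4A1 KO cells (Atf4, Ddit3, Trib3, Ppp1r15a and Sesn2), and it was the lowest for 0 of 10 in either. The matching shares of all genes were not computed, so these counts cannot be read as particular to the 10 genes. Replicate 1 was also the only batch A male of each genotype, and viability was not tested as a cause. When replicate 1 was included in the model, 2 of 10 genes were called higher (Atf5 and Asns) and 2 of 10 lower (Chac1 and Ddit4), against 11.4% and 14.2% of the 14211 genes then tested. Ppp1r15a then had a log2 fold change of 0.50, just under the threshold, with an adjusted p of 0.0451 by edgeR's quasi-likelihood test. Sesn2 had a log2 fold change of 0.37 with an adjusted p of 0.0678 by the same test.

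With all 8 libraries each sex and each batch held 2 libraries of each genotype, and the difference of the genotype effect could be tested. For none of the 10 genes did the difference between males and females (adjusted p = 1 for each) or between batches (adjusted p = 0.999 for each, edgeR's quasi-likelihood interaction test with Benjamini-Hochberg adjustment over 14211 genes) pass the test. The smallest unadjusted p of the 10 genes in edgeR's interaction tests was 0.0826 for Atf5, whose log2 fold change was larger by 0.19 in batch B than in batch A. Over all 14211 genes, 0 had an adjusted p under 0.05 for sex and 1 for batch. These tests therefore do not show that the effect was the same in both sexes or batches.

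Levels of different genes were compared in TPM, transcript abundance scaled for transcript length and library total. Atf4 was the most abundant of the 10 in both genotypes, at 661 ± 73.3 TPM in control and 903 ± 113 TPM in 4A1 KO cells (SD, n = 4). In control cells Ddit3 (115 ± 43.1 TPM) and Ppp1r15a (104 ± 29.3 TPM) followed, with overlapping ranges. Then came Atf5 (46.6 ± 3.09 TPM), Sesn2 (42.8 ± 10.3 TPM), Asns (32.5 ± 4.03 TPM), Chac1 (23.4 ± 9.02 TPM), Trib3 (20.9 ± 9.09 TPM) and Ddit4 (15.7 ± 4.41 TPM), each overlapping its neighbour. Nupr1 was the lowest, at 0.635 ± 0.260 TPM.

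In 4A1 KO cells Ppp1r15a (145 ± 26.2 TPM), Ddit3 (91.1 ± 26.3 TPM) and Atf5 (80.5 ± 6.38 TPM) came after Atf4, where Ddit3 overlapped both of the others while Ppp1r15a and Atf5 did not overlap each other, and Sesn2 (54.7 ± 6.41 TPM) and Asns (46.5 ± 8.48 TPM) overlapped below them. Trib3 (20.7 ± 4.55 TPM) was separate from its neighbours. Chac1 (9.78 ± 2.81 TPM) and Ddit4 (9.11 ± 2.40 TPM) overlapped, and Nupr1 was at 0.458 ± 0.295 TPM. Chac1 and Trib3, whose ranges overlapped in control cells, were thus separate in 4A1 KO cells, as were Atf5 and Sesn2.

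**Figure D3:**
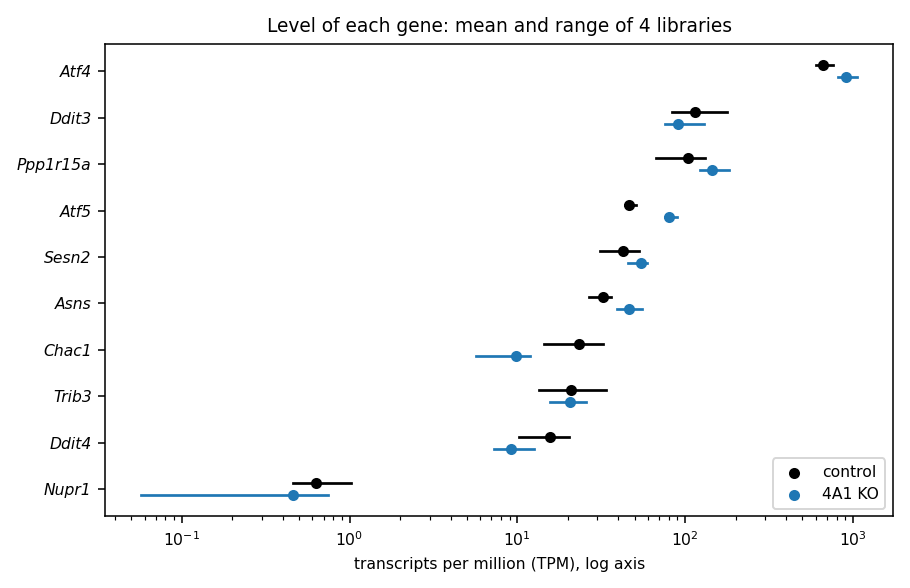
TPM of the 10 genes on a log axis, ordered by the control mean, with points for the mean and lines for the range of the 4 libraries of each genotype (control black, 4A1 KO blue). Atf4 stands above the other 9 genes in both genotypes, and Nupr1 is at or below 1.02 TPM in all libraries.

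The genes whose log2 CPM followed that of Atf4 most closely over the 8 libraries, after each was centred on its own mean, were Zrsr2 (root mean square distance 0.0436), Hexim1 (0.0518) and Trmo (0.0526), among 11821 genes compared. The distance is on the log2 scale and takes in both genotype and replicate. Only the 3 nearest genes were taken, which does not show how closely the other 9 members followed Atf4.

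The genes around ATF4 were described with lists of eIF2 regulators, ATF4 partners and known ATF4 targets, none of which holds any of the 10 members. The lists were chosen with earlier results of these data known, so their counts are a description and not a test. The 4 lists of other ATF4 targets together held 54 genes, of which 50 were tested. Of these, 14 were called higher and 5 lower, against 11.6% and 13.7% of all genes tested, and 30 were higher and 6 lower by adjusted p alone, against 26.3% and 26.7%. The median log2 fold change of the 50 was 0.33, and that of all genes tested was 0.01. The same shares of all genes are the background of each list described next.

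Upstream of ATF4, the eIF2 machinery list (17 genes tested) had 0 genes called higher and 1 lower by edgeR and by DESeq2, with 6 higher and 6 lower by edgeR's adjusted p alone and a median log2 fold change of -0.03. The gene called was Eif2ak2, which encodes PKR, the kinase that senses double-stranded RNA, and it fell from 25.6 ± 3.62 to 15.0 ± 2.06 CPM (SD, n = 3), with a log2 fold change of -0.77 (SE 0.08, adjusted p = 6.61e-05, edgeR with Benjamini-Hochberg adjustment). Eif2ak4, encoding the amino acid sensor GCN2, had a log2 fold change of 0.15 (adjusted p = 0.0365), with an adjusted p over 0.05 in 8 of 13 other settings, DESeq2 (0.104) and each setting that left out a replicate among them. Eif2ak3, encoding the endoplasmic reticulum sensor PERK, was at 0.16 (adjusted p = 0.105), and Eif2ak1, encoding the haem sensor HRI, at -0.12 (adjusted p = 0.0784).

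Among ATF4 partners and related bZIP factors (14 of 18 tested), 3 were called higher and 1 lower. Nfe2l2 (NRF2, the regulator of antioxidant genes) had a log2 fold change of 1.10, Atf7 of 0.86 and Atf3, a stress-induced factor, of 0.66 (adjusted p = 0.0308, edgeR with Benjamini-Hochberg adjustment). Atf3 was not past both thresholds in 7 of 13 other settings, and its log2 fold change was 0.33 without replicate 3 and 1.03 without replicate 4. Jdp2, a repressor of the same family, fell by 2.03 on the log2 scale, from 2.86 ± 0.407 to 0.696 ± 0.175 CPM (SD, n = 3).

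The amino acid transporters had the highest median log2 fold change of these lists, 0.56, with 6 of 10 called higher and 0 lower by edgeR and by DESeq2, and 0 lower at an unadjusted p under 0.05 in either, against 29.1% of all genes tested lower at that p by edgeR. Slc6a9, a glycine transporter, rose from 5.23 ± 1.11 to 22.2 ± 5.85 CPM (SD, n = 3), with a log2 fold change of 2.08 (SE 0.10, adjusted p = 9.59e-06, edgeR with Benjamini-Hochberg adjustment). Slc1a4, a transporter of small neutral amino acids, had a log2 fold change of 1.31. The transporters of cationic amino acids Slc7a3 and Slc7a1 had log2 fold changes of 0.89 and 0.68.

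Of 13 aminoacyl-tRNA synthetase genes and related genes, which charge tRNAs with amino acids or export them from the nucleus, 2 were called higher and 0 lower by edgeR and by DESeq2, and 10 were higher and 0 lower by edgeR's adjusted p alone, with 0 lower at an unadjusted p under 0.05 in either tool, with a median log2 fold change of 0.34. Those called were Lars (leucine, log2 fold change 0.58) and Cars (cysteine, 0.52). Cars was not past both thresholds in 3 of 13 other settings.

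Amino acid synthesis genes (14 tested) were divided, with 3 called higher, 3 lower and a median log2 fold change of 0.02. Gpt2, a mitochondrial alanine aminotransferase, had a log2 fold change of 1.14, and Pycr1, an enzyme of proline synthesis, of 1.01. The third, Bcat1, which acts on branched-chain amino acids, was at 0.87. Cth and Cbs, the pair of enzymes that make cysteine from homocysteine, fell by 1.79 and 1.24 on the log2 scale, Cth from 4.36 ± 0.799 to 1.27 ± 0.446 CPM (SD, n = 3). Aldh1l2, a mitochondrial folate enzyme at under 1 CPM, was at -1.19, but its adjusted p was 0.0997 with DESeq2, which called 2 genes of this list lower. Bcat1 and Aldh1l2 were outside the rule for named genes and were named after their values were seen.

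Among the other stress regulators (13 of 17 tested), 3 were called higher and 2 lower, with a median of 0.19. These included Atf3 and Jdp2, which this list shares with the bZIP factors. Bbc3, which encodes the death factor PUMA, had a log2 fold change of 0.70, which was 0.46 without replicate 3, and was not past both thresholds in 4 of 13 other settings. Eif4ebp1, which encodes the translation repressor 4E-BP1, was at 0.54. Herpud1, a gene of endoplasmic reticulum degradation named after its value was seen, was at -0.52 and was not past both thresholds in 4 of 13 other settings, among them those without replicate 2 (-0.43) and without replicate 4 (-0.48).

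Of the paralogs of the members (6 of 8 tested), 2 were called higher and 0 lower by edgeR and by DESeq2, with 1 lower at an unadjusted p under 0.05 in edgeR. Trib1 rose from 15.0 ± 2.84 to 59.1 ± 5.63 CPM (SD, n = 3), with a log2 fold change of 1.99 (SE 0.11, adjusted p = 9.59e-06, edgeR with Benjamini-Hochberg adjustment), whereas its paralog Trib3 did not pass the test. Trib2 had a log2 fold change of 0.93, and its adjusted p was 0.104 by edgeR without the replicate block. In TPM, Trib1 went from 6.63 to 25.9 and Trib3 from 16.6 ± 3.46 to 18.9 ± 3.68 (SD, n = 3), so the mean of Trib1 was below that of Trib3 in control and above it in 4A1 KO cells.

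The other branches of the unfolded protein response, which act through XBP1 and ATF6, were set beside these genes. Of 18 genes, 1 was called higher and 7 lower, against 11.6% and 13.7% of all genes tested. By adjusted p alone 3 were higher and 12 lower, against 26.3% and 26.7%, and the median log2 fold change was -0.37. Xbp1, the factor of the secretory branch, fell from 145 ± 14.5 to 75.5 ± 7.46 CPM (SD, n = 3), with a log2 fold change of -0.94 (SE 0.05, adjusted p = 1.02e-05, edgeR with Benjamini-Hochberg adjustment). Sdf2l1, Manf and Pdia4, all of protein folding in the endoplasmic reticulum, had log2 fold changes of -0.91, -0.81 and -0.80. The gene called higher was Ern1, the sensor upstream of XBP1, at 0.72, which was named after its value was seen and was at 0.47, under the fold threshold, with limma on log2(TPM + 1). Plasma cells use this branch for secretion, and the plasma cell markers (4 genes) summed to 494 to 775 CPM in control and 481 to 607 CPM in 4A1 KO libraries, with 2 of 4 called lower (13.7% of all genes tested) and a median log2 fold change of -0.39. Their part in this result was not tested.

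**Figure D4:**
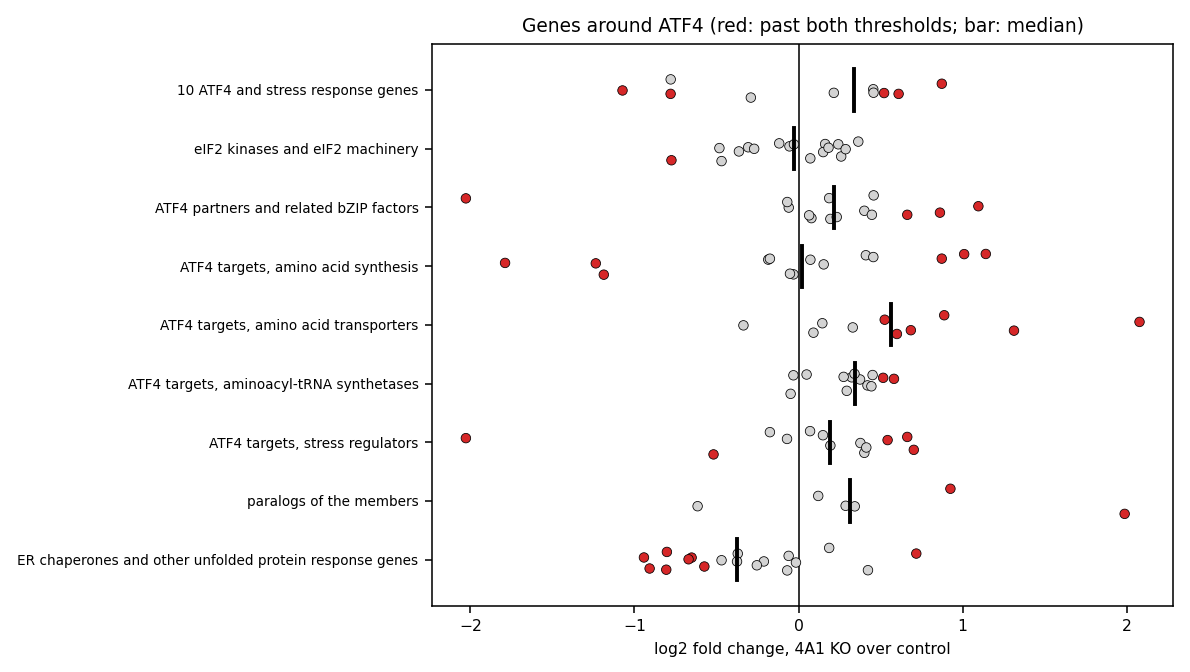
Log2 fold change of 4A1 KO over control for the tested genes of each list, with 1 point per gene (red where past both thresholds) and a bar at the median. The 10 members hold red points on both sides of 0, as do the bZIP factors, the amino acid synthesis genes, the stress regulators and the unfolded protein response genes, the red points of the transporters and synthetases are all above 0, and 7 of 8 red points of the unfolded protein response genes are below 0.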

How the data were processed

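RNA of B cells from 8 mice, 4 per genotype, was sequenced, and groups, batch and sex were taken from the labels. The authors mapped trimmed reads (Trim Galore 0.6.6) to GRCm39 with HISAT2 2.1.0 per the submitters' notes, and deposited raw read counts made in Seqmonk over merged isoforms with opposing strand-specific paired reads. The deposited TPM came from StringTie 2.1.1, run by the authors. How reads with several positions were counted is not given in the sources used here. Of 53242 genes, 52647 were matched by identifier to GENCODE M39. An alignment of the members' transcripts (blastn 2.17.0) found no copy of at least 300 bases at 90% identity other than genes that overlap them on the opposite strand.

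Counts were tested in R 4.3.3 with edgeR 4.0.16 (filterByExpr, TMM, quasi-likelihood fit of genotype with batch and sex as covariates, two-sided, Benjamini-Hochberg adjustment over 14218 genes). Replicate 1 was left out of the tests, as in the study. The thresholds for a call were an adjusted p of 0.05 and a log2 fold change of 0.5 in either direction. TPM were used for levels and, on log2(TPM + 1), for limma 3.58.1. Other settings were DESeq2 1.42.0, other size factors and filters, a pseudocount of 0.1, no replicate block, all 8 libraries, and leaving out each replicate. Single genes were compared over 8 libraries with exact permutation tests (scipy 1.17.1). In replicates 2 to 4, batch and sex together equal the replicate number, so same-numbered libraries are paired by the batch and sex in the labels. Deviations from the genotype means correlated within pairs (r = 0.594, 0.502 and 0.432 across genes, which are not independent).

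The members and lists were chosen with earlier results of these data known. The text names all 10 members, all eIF2 kinases and, from each list, up to 4 called genes of largest change averaging at least 1 CPM, and says where another gene is named. The 3 genes nearest to Atf4 were taken from those averaging 1 CPM or more. The code was tested on simulated data. The depth of 31727557 to 43210858 counts per library limits precision mainly for Nupr1. The SD given are between libraries, of separate mice. Each SE was derived from the log2 fold change and the F statistic of edgeR's test, which shares information on variance across genes. It is thus not the plain spread of the libraries and can be smaller than in another tool. For Ppp1r15a it was 0.14, against 0.24 with DESeq2. The proteome was not analysed here.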

Additional observations from a re-analysis of the deposited data

Results flagged for a closer look

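In 5 of 74 groups of 4 libraries examined, 1 library stood apart from the other 3 by Dixon's measure, its distance from the next library as a share of the group's range. Chance gives about 1 in 20, or 3.7 of 74. The highest Ddit3 library of 4A1 KO cells was replicate 1 (64.8 CPM, the next 36.3 CPM, gap over range 0.949). The highest Nupr1 library of control cells was replicate 4 (0.436 CPM, the next 0.275 CPM, gap over range 0.941), at few counts. The lowest Sesn2 library of 4A1 KO cells was replicate 2 (85.7 CPM, the next 108 CPM, gap over range 0.921), and the lowest Chac1 library was also 4A1 KO replicate 2 (5.04 CPM, the next 9.53 CPM, gap over range 0.873). The highest Gpt2 library of 4A1 KO cells was replicate 3 (20.8 CPM, the next 16.3 CPM, gap over range 0.860).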

How the results depend on the processing

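Atf5, Asns and Chac1 were called in the same direction in all 13 other settings, with log2 fold changes of 0.82 to 0.92, 0.53 to 0.65 and -1.31 to -0.95. Ddit3 (-0.35 to -0.24) was called in 0 of 13, and its adjusted p was over 0.05 in 3 of them, at 0.145 with all 8 libraries, 0.0639 with limma on log2(TPM + 0.1) and 0.0974 with limma without a filter. Nupr1 (-1.11 to -0.25) had an adjusted p over 0.05 in the 10 settings that tested it. Sesn2 had an adjusted p over 0.05 in 6 of 13, at 0.0742 with DESeq2, 0.0883 without the replicate block, 0.0678 with all 8 libraries and 0.0770, 0.104 and 0.219 in the 3 limma settings. Leaving out a replicate gave 2 to 5 members called higher (5 without replicate 4, which added Atf4 and Sesn2). Over all genes tested, 1393 to 1728 were then called higher. The log2 fold changes were 0.40 to 0.52 for Atf4 and 0.24 to 0.60 for Sesn2 (called without replicate 2 or 4). Those of Ppp1r15a were 0.27 to 0.72 (not called without replicate 3). Those of Trib3 were -0.067 to 0.39, where the sign turned without replicate 3 and edgeR's adjusted p was 0.0311 without replicate 4. Ppp1r15a was not called with DESeq2 (0.52, adjusted p = 0.0675), limma on log2(TPM + 1) (0.51, adjusted p = 0.0742; without a filter on low TPM adjusted p = 0.219), limma on log2(TPM + 0.1) (0.52, adjusted p = 0.101) or all 8 libraries (0.50, adjusted p = 0.0451). Without the replicate block, Ppp1r15a (0.49, adjusted p = 0.0689) and Ddit4 (-0.79, adjusted p = 0.0601) were not called, which left 1 member called lower. Trib2 was not called there either (adjusted p = 0.104), and in that fit without the block 1342 genes were called higher and 1658 lower, of which 2995 were shared with the fit with the block. Limma without a filter also left 1 member called lower (Ddit4 -0.72, adjusted p = 0.0584), against 1335 of 25997 genes tested. Limma on log2(TPM + 1) called 1076 genes higher, and 921 without a filter, against 1647 by edgeR. The cause of these changes was not tested. With 3 libraries per genotype, Nupr1 was limited by its few counts, and it could not be fitted where a mean of at least 1 CPM or 1 TPM was asked.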
